A study of Mus musculus with 113 samples.

Results

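A set of 10 genes that write, copy, read or remove DNA methylation was followed through neural differentiation of mouse embryonic stem cells (mESCs). They were Dnmt1, Uhrf1 and Uhrf2 (maintenance), Dnmt3a, Dnmt3b and Dnmt3l (de novo methylation), Tet1, Tet2 and Tet3 (oxidation) and Tdg (excision). The rule for members was the gene symbol, and all 10 were found in each of the 4 expression tables: 10 of 13541 genes in the floating-culture populations, of 13738 in the adherent culture, of 23107 in the E14 lines and of 11449 in single cells.

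DNA methyltransferases put a methyl group on cytosine, mostly in CG pairs. Dnmt3a and Dnmt3b methylate DNA that carried no mark before, and Dnmt3l, which has no catalytic activity of its own, assists them. At each round of replication Uhrf1 reads the half-methylated DNA and brings Dnmt1 to it, and Uhrf2 is a homologue of Uhrf1. Tet enzymes oxidize 5-methylcytosine and Tdg cuts out the later oxidation products, which base excision repair then replaces with unmodified cytosine. In the early embryo and in mESCs these genes are known for large changes as cells leave the naive state for the epiblast.

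R1 mESCs, passaged once without feeder cells, were differentiated in 2 ways. In SFEB culture, where cells float without serum as aggregates that resemble embryoid bodies, 22 cell populations were sequenced, 14 in a first series from 0 to 142 h and 8 in a parallel series from 0 to 216 h, and 64 single cells were taken alongside the latter, 8 at each of 8 time points. The aggregates were replated on day 6. In adherent monoculture, begun on gelatin in N2B27 medium and replated on day 6 onto a matrix coating, 15 populations were sequenced from 0 to 216 h. E14 mESCs, either wild type (WT) or from 1 clone lacking the Src-family kinase Fyn (Fyn KO, made by CRISPR deletion with paired guides), were sequenced at day 0 and day 4 with 3 replicates a group. The labels do not say which of the cultures the E14 cells were grown in. Each R1 time point is 1 library, so libraries were grouped into time windows for testing: 0–22 h, 34–68.5 h, 80–106 h and 125.5–216 h, with 7, 6, 5 and 4 SFEB populations and 4, 4, 3 and 4 adherent ones. The spread within a window then also holds the change over time within it. Libraries of a series are successive times but were treated as independent, and the adherent culture is 1 series. The p-values measure the spread among the libraries of the windows and not that between repeated differentiations. SFEB values were batch-corrected by the authors before the fit, which takes no account of that step.

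Population values are FPKM, a level scaled by transcript length and library size, so levels of different genes can be compared. The study states a minimum read number per library, but the tables hold no counts, so the reads behind each value are not known. The tables were normalized separately, and levels are set side by side across them without a test. Markers followed the labels: the summed naive markers (Zfp42, Klf4, Esrrb, Nanog and others) lay between 565 and 818 FPKM in SFEB libraries of 0–22 h and between 30.5 and 152 FPKM after 125.5 h, and the summed neural progenitor markers (Sox1, Pax6, Nes, Hes5, Fabp7, Zfp521) went from 19.999–42.0 to 362–869 FPKM. The summed fibroblast markers were 225–1351 FPKM in the SFEB libraries of 0–22 h and 77.1–138 FPKM at 34–68 h, and 252–909 and 117–212 FPKM in the matching adherent windows. In SFEB culture 10 of 10 tested fibroblast markers fell between these windows (median log2 change -2.59), and in the adherent culture 8 of 10 did (median -1.395). Their part in the changes between the first pair of windows below was not tested. In populations, fewer cells of a type and less RNA per cell cannot be told apart. In the SFEB 2 h and adherent 41.5 h libraries, long transcripts (over 6000 bases) read lower against short ones (under 2000 bases) by log2 values of -0.75 and -0.57, against -0.28 to 0.39 in the other libraries. Tet1, Tet2, Tet3 and Dnmt3a are long, with longest transcripts of 14369, 9179, 10904 and 9685 bases, so their values in those libraries are given with that limit.

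In mm9, the build named for the R1 libraries, Dnmt1 lies at chr9:20711650-20757317 on the minus strand, Uhrf1 at chr17:56442744-56462909 and Uhrf2 at chr19:30105003-30168212, both on the plus strand. Dnmt3a is at chr12:3806007-3914443, Dnmt3b at chr2:153475186-153513466 and Dnmt3l at chr10:77504692-77526367, all on the plus strand. Tet1 (chr10:62267318-62361866), Tet2 (chr3:133126643-133207354) and Tet3 (chr6:83312367-83391672) are on the minus strand, and Tdg (chr10:82092573-82113544) is on the plus strand. All values are sums over each whole gene.

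The maintenance pair shared a short promoter word, shown here because Uhrf1 was the gene most like Dnmt1 in expression. Among the 17 RefSeq promoters of the 10 genes (GRCm38.p6, 250 bases before each start), 1 Dnmt1 and 1 Uhrf1 promoter held an E2F-type word. The words searched on both strands were TTTCCCGC, TTTGGCGC, TTTCGCGC and TTTGCCGC, none of which overlapped another in these 2 promoters. The 30 bases around each word are printed on the gene's strand, with the word in capitals.

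Dnmt1, chr9:20952824-20952853, minus strand, word 219 bases before the start: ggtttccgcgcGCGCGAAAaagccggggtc

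Uhrf1, chr17:56304117-56304146, plus strand, word 185 bases before the start: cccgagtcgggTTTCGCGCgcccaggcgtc

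Read on opposite strands, the 8 letters are the same word in both genes. This word occurred in 0.256% of the 32851 promoters in the RefSeq table, and any of the 4 words in 1.86%. The Dnmt1 stretch precedes the most downstream of the 3 listed Dnmt1 starts, so transcripts from the other starts run through it. A match is a description of these letters and not a site.

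The promoters also differed in CG pairs, the substrate of these enzymes. The Tet2 promoter held 51 CG pairs in 250 bases, more than 99.9% of all promoters in the table, where the median was 6. Dnmt3a had 38, 40 and 15 in its 3 promoters, Uhrf2 23, Dnmt3b 21, Tdg 19, Tet3 17 and Tet1 15. Dnmt3l had 5, 4 and 3 CG pairs in its 3 promoters, all under the median. The 3 Dnmt1 promoters held 2, 7 and 26 and the 2 Uhrf1 promoters 10 and 30, and in both genes the promoter with the printed word held the most. Of all promoters, 37.8% held at least 10.

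**Figure D1:**
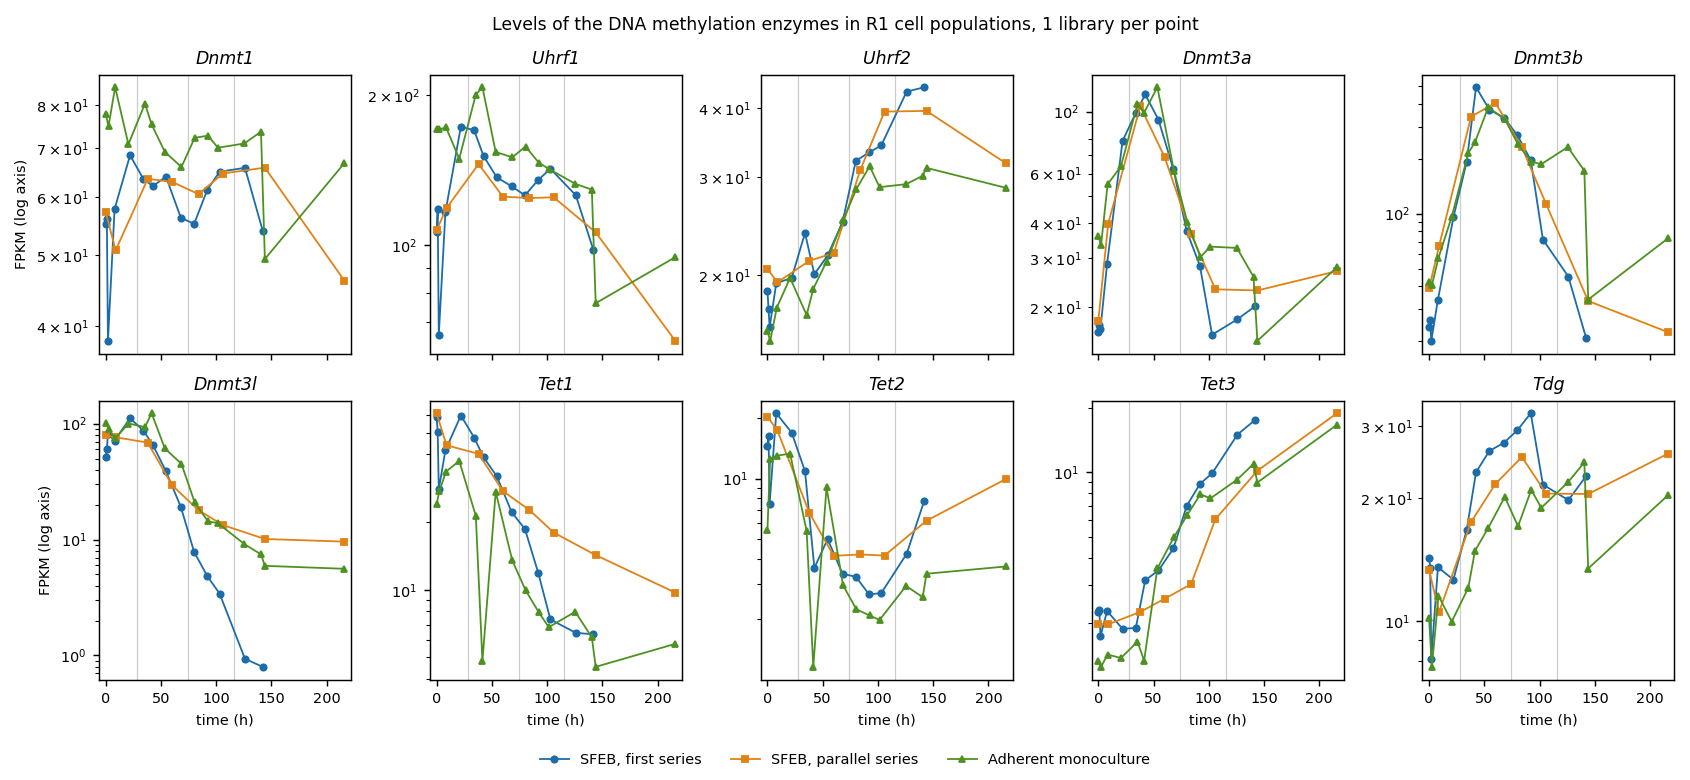
Level of each gene (y axis, FPKM, log scale) against hours of differentiation (x axis) in the first SFEB series, the parallel SFEB series and the adherent culture, with 1 library per point and grey lines between the time windows. Dnmt3b peaked at 42.5, 60 and 53.5 h in the 3 series, Dnmt3l and Tet1 declined, and Tet3 climbed to its highest level in the last library of each series.

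The maintenance genes varied least. Dnmt1 stayed between 38.2 and 68.4 FPKM across the 22 SFEB populations, and its highest level was 1.79 times its lowest in the first series, 1.43 times in the parallel series and 1.72 times in the adherent culture. The lowest SFEB value, 38.2 FPKM, was that of the 2 h library. Uhrf1 was above Dnmt1 in 22 of 22 SFEB, 15 of 15 adherent and 12 of 12 E14 libraries, by 1.38 to 3.41 times. In the first SFEB series Uhrf1 was at 106 FPKM at 0 h, 173 FPKM at 22 h, 131 FPKM at 68 h and 97.6 FPKM at 142 h, and in the parallel series it ended at 64.2 FPKM at 216 h. Neither gene passed the test between neighbouring windows in either culture. The nearest to the threshold was Uhrf1 between 0–22 and 34–68 h in SFEB culture, with a log2 change of 0.36 ± 0.16 (SE, adjusted p = 0.0696, limma). For Dnmt1 in the same comparison the 95% interval of the log2 change ran from -0.023 to 0.41.

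Uhrf2 took another course from Uhrf1. It rose from a median of 19.3 FPKM (range 16.1–20.5) at 0–22 h to 41.1 FPKM (31.8–43.6) after 125.5 h in SFEB culture, while Uhrf1 had medians of 116 and 102 FPKM in the same windows. The ranges of Uhrf2 in these windows do not overlap. Most of the rise came between the 34–68 h libraries (20.045–24.9 FPKM) and those of 80–106 h (30.9–39.4 FPKM), a log2 change of 0.59 ± 0.091 (adjusted p = 0.00015, limma). The adherent libraries moved from 16.9–25.1 to 28.6–31.4 FPKM in that step (log2 change 0.52 ± 0.13, adjusted p = 0.00802). Uhrf1 nevertheless stayed above Uhrf2 in every population, by at least 2.02 times in SFEB culture.

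The de novo enzymes rose and fell in a pulse in SFEB culture, and in the adherent culture the later fall passed the test for Dnmt3a but not for Dnmt3b. Dnmt3b in the first SFEB series went from 23.8 FPKM at 0 h through 95.5 at 22 h and 192 at 34 h to 494 FPKM at 42.5 h, then through 335 at 68 h and 197 at 92 h to 20.9 FPKM at 142 h. Its highest level was 24.6 times its lowest. The parallel series reached 405 FPKM at 60 h and ended at 22.4 FPKM at 216 h, and the adherent culture reached 383 FPKM at 53.5 h and ended at 73.1 FPKM. Dnmt3b was the highest of the 10 genes by median in the SFEB windows of 34–68 h (357 FPKM) and 80–106 h (197 FPKM), and was the fifth at 0–22 h (33.7 FPKM) and the fourth after 125.5 h (27.8 FPKM).

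Dnmt3a rose at the same time and fell sooner. In the first series its level was 16.3 FPKM at 0 h, 78.5 at 22 h, 115 at 42.5 h, 62.2 at 68 h and 15.9 FPKM at 103 h. The parallel series peaked at 104 FPKM at 38 h and the adherent culture at 122 FPKM at 53.5 h. At 103 h, when Dnmt3a was back at its level of 0 h, Dnmt3b was still at 72.1 FPKM. Dnmt3b exceeded Dnmt3a in 21 of 22 SFEB populations and 15 of 15 adherent ones, by up to 7.17 times. The exception was the parallel 216 h library, with 26.9 FPKM of Dnmt3a and 22.4 FPKM of Dnmt3b.

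Dnmt3l, the cofactor, was already high at the start. It began at 51.6 FPKM in the first series, 79.2 in the parallel series and 101 FPKM in the adherent culture, and at 22 h it was at 111 FPKM in the first series, its highest level there. From then on it declined at each time point of that series, to 38.8 FPKM at 54.5 h, 7.81 at 80 h and 0.798 FPKM at 142 h, 140 times below its highest. In the parallel series the late level was 10.1 FPKM at 144 h and 9.60 FPKM at 216 h, and in the adherent culture 5.60 FPKM at 216 h. The highest adherent value, 123 FPKM, was that of the 41.5 h library, in which short transcripts read high (Dnmt3l has a longest transcript of 1822 bases), between 93.5 FPKM at 35.5 h and 61.1 FPKM at 53.5 h. The first series at 142 h and the parallel series at 144 h thus read 0.798 and 10.1 FPKM at nearly the same time. These libraries also differed in markers, with summed naive markers of 30.5 and 152 FPKM and summed neural progenitor markers of 682 and 362 FPKM. Both series passed through a batch correction by the authors whose batches are not stated. The part of either in the Dnmt3l values was not tested.

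Between 0–22 and 34–68 h in SFEB culture 5 of the 10 genes passed the test, against 40.5% of all 13363 genes tested. Dnmt3b rose by a log2 change of 3.15 ± 0.34 (adjusted p = 6.4e-07, limma) from a median of 33.7 FPKM (range 20.1–95.5) to 357 FPKM (192–494), with no overlap. Dnmt3a rose by 1.73 ± 0.29 (adjusted p = 9.4e-05), from 17.8 FPKM (16.3–78.5) to 96.2 FPKM (62.2–115), and here the 22 h library overlapped the later window. Tdg rose by 0.80 ± 0.14 (adjusted p = 9.8e-05) and Uhrf2 by 0.24 ± 0.084 (adjusted p = 0.0273), while Tet2 fell by 1.44 on the log2 scale (SE 0.22, adjusted p = 3.8e-05). Of the rest, Dnmt3l had a log2 change of -0.74 (adjusted p = 0.126) and Tet1 of -0.51 (adjusted p = 0.0702). The rise of Uhrf2 in this step lost its call without the 1, 34 or 68 h library of the first series (adjusted p 0.0559, 0.0572 and 0.0726).

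The adherent culture had 4 of 10 genes past the threshold in that step, with 15.1% of 12879 genes called (5.84% higher and 9.26% lower). Dnmt3b rose by 2.35 ± 0.46 (adjusted p = 0.00386, limma), Dnmt3a by 1.04 ± 0.26 (adjusted p = 0.0146) and Tdg by 0.64 ± 0.18 (adjusted p = 0.0298), and Tet2 fell by 1.25 on the log2 scale (SE 0.37, adjusted p = 0.0332). These are the genes that also passed in SFEB culture, apart from Uhrf2. The count was 1 without the 2.5 h library and 2 without the 68.5 h library. Over all genes, 752 higher and 1193 lower became 398 and 689 without the former and 503 and 879 without the latter. Tet2 lost its call in 5 of 8 fits without 1 library (the 2.5, 8.5, 20.5, 41.5 or 68.5 h library, adjusted p 0.0663 to 0.0949), and its log2 change was -0.86 without the 41.5 h library, in which long transcripts read low, and -1.14 to -1.17 without the other 4.

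Between 34–68 and 80–106 h in SFEB culture 6 of 10 genes passed, against 33.1% of all genes. Dnmt3l fell by 2.41 on the log2 scale (SE 0.41, adjusted p = 0.000275, limma), from a median of 52.4 FPKM to 7.81 FPKM. Dnmt3a fell by 1.68 (SE 0.32, adjusted p = 0.00065), Tet1 by 1.17 (SE 0.24, adjusted p = 0.0011) and Dnmt3b by 1.12 (SE 0.37, adjusted p = 0.024). Uhrf2 rose, as given above, and so did Tet3 (0.98 ± 0.19, adjusted p = 0.00065). The fall of Dnmt3b lost its call without the 42.5, 103 or parallel 106 h library (adjusted p 0.0585, 0.101 and 0.0745), and with the 8 libraries of the parallel series alone 0 of the 10 genes, and 1 of all genes tested, passed in this step by limma. The log2 changes there were -1.51 for Dnmt3a, -1.20 for Dnmt3b and 0.67 for Uhrf2, and smaller than in both series for Dnmt3l (-1.48), Tet1 (-0.70) and Tet3 (0.64). In the adherent culture 4 of 10 passed, against 28.8% of genes (18.5% higher and 10.3% lower). There Dnmt3a (-1.44 ± 0.28, adjusted p = 0.00247) and Dnmt3l (-2.15 ± 0.27, adjusted p = 0.000317) fell, and Tet3 (1.19 ± 0.28, adjusted p = 0.00718) and Uhrf2 rose. Adherent Dnmt3b had a log2 change of -0.48 ± 0.49 in this step (adjusted p = 0.470) and of -1.03 ± 0.49 in the last (adjusted p = 0.214). The median of all adherent genes itself moved by 0.14 in this step on the log2 scale.

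In the last step, from 80–106 to beyond 125.5 h, 4 of 10 genes passed in SFEB culture, against 39.8% of all genes. Dnmt3b fell by 2.43 on the log2 scale (SE 0.41, adjusted p = 0.00013, limma), from a median of 197 FPKM (72.1–269) to 27.8 FPKM (20.9–45.2), with no overlap. Tet1 fell further (-0.73 ± 0.27, adjusted p = 0.0334), Tet3 rose further (1.12 ± 0.21, adjusted p = 0.00029), and Tet2 rose again (0.81 ± 0.27, adjusted p = 0.0221). Without the 142 h library 2 of 10 passed, with 2501 of all genes called higher and 1372 lower in place of 3299 and 2016. The Tet1 call was lost without any of 6 libraries (the first series at 80, 126 or 142 h, or the parallel series at 84, 106 or 216 h), and the Tet2 call without the 142 h or the parallel 216 h library (adjusted p 0.0877 and 0.0848). The adherent culture had 1 of 10 past the threshold, Dnmt3l (-1.11 ± 0.27, adjusted p = 0.027, limma), against 6.72% of genes (5.51% higher and 1.20% lower). That count became 0 without the 80.5, 92.5, 101.5, 144 or 216 h library and 3 without the 125.5 h library. Over all genes, 710 higher and 155 lower became 126 and 15 without the 80.5 h library and 1445 and 437 without the 125.5 h library. Adherent Dnmt3b was at 232 and 172 FPKM at 125.5 and 140.5 h and at 33.8 and 73.1 FPKM at 144 and 216 h, so its late libraries fell far apart. The cells were replated on day 6, the day of the 144 h library, and the part of this in the late values was not tested. In the adherent 144 h library the summed fibroblast markers stood at 632 FPKM, the highest of that window. Over the last adherent step 4 of 4 mesoderm and endoderm markers (median log2 change 1.78) and 4 of 5 neuron markers (1.34) rose. Their part in the late values was not tested.

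**Figure D2:**
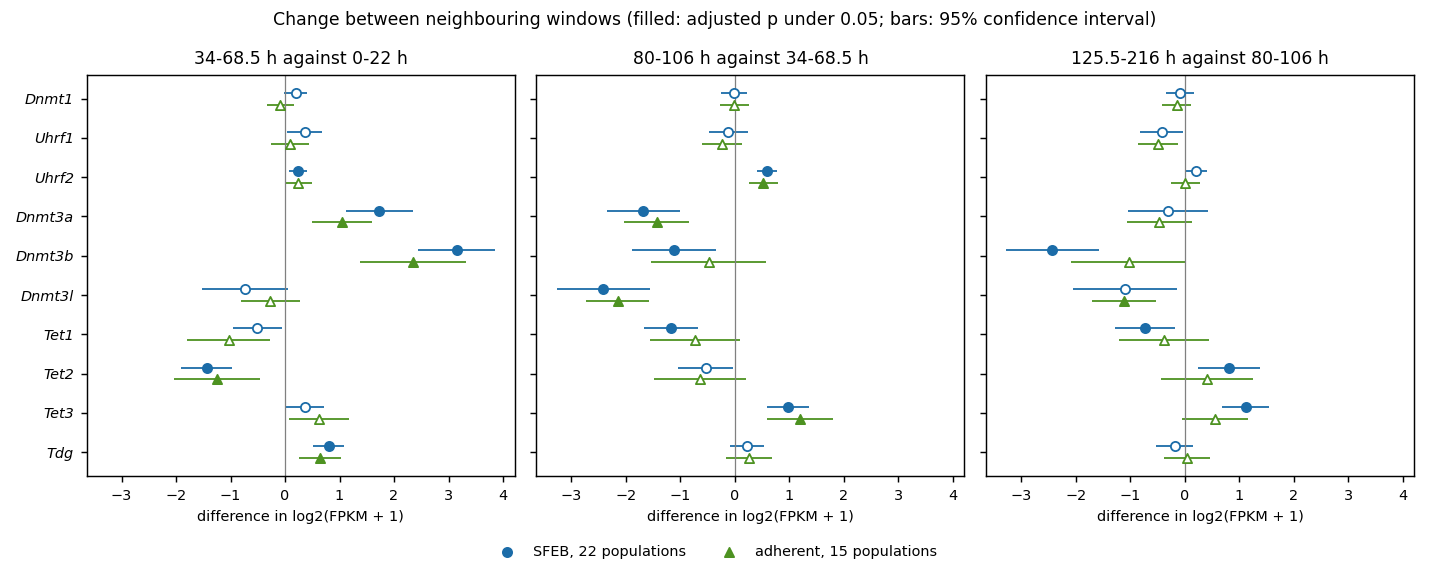
Log2 change of each of the 10 genes (x axis, points, with bars for the 95% confidence interval from limma, filled where the adjusted p is under 0.05) between neighbouring time windows in SFEB and adherent culture. Dnmt3b and Dnmt3a lie to the side of a rise in the first step (3.15 and 1.73 in SFEB culture), Dnmt3l lies lowest in the second step (-2.41 and -2.15), and Tet3 lies above 0 in the later steps.

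Among the Tet enzymes the leading member changed. Tet1 had 58.7 FPKM at 0 h in the first SFEB series, was at 59.6 FPKM at 22 h and then fell to 38.8 at 42.5 h, 18.6 at 80 h and 6.33 FPKM at 142 h. In the parallel series it went from 61.0 to 9.71 FPKM, and in the adherent culture from 24.0 FPKM at 0 h through 37.4 FPKM at 20.5 h to 5.74 FPKM at 216 h. None of the adherent steps of Tet1 passed the test (log2 changes -1.04, -0.73 and -0.39, adjusted p 0.0667, 0.160 and 0.572, limma). The Tet1 values of 27.9 FPKM at 2 h and of 4.82 FPKM at 41.5 h in the adherent culture lie far below those of the neighbouring times and come from the libraries in which long transcripts read low. Tet3 took the opposite course, from 2.26 to 17.5 FPKM in the first series, from 1.98 to 18.8 FPKM in the parallel series and from 1.33 to 16.6 FPKM in the adherent culture, which is 7.77, 9.50 and 12.5 times its level at 0 h. In each series the last library held the highest Tet3 level.

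Tet2 fell early and came partly back. In the first SFEB series it was between 14.5 and 21.1 FPKM up to 22 h except in the 2 h library (7.50 FPKM), in which long transcripts read low. It was between 2.66 and 5.00 FPKM from 42.5 to 103 h and at 7.77 FPKM at 142 h. The parallel series went from 20.3 FPKM through 4.13 FPKM at 60 h to 9.96 FPKM at 216 h. The adherent values after 53.5 h lay between 1.98 and 3.65 FPKM, and no rise of Tet2 passed the test there.

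As a share of the summed FPKM of the 3 Tet genes, Tet1 held 77.8% at 0 h in the first series, 73.2% in the parallel series and 77.8% in the adherent culture, and Tet3 held 2.99%, 2.38% and 4.33%. Tet3 first exceeded Tet1 at 103 h in the first series (49.6% against 36.9%) and at 101.5 h in the adherent culture (46.3% against 41.6%). In the parallel series the order still favoured Tet1 at 144 h (46.6% against 33.3%) and was turned at 216 h (25.2% against 48.9%). The markers of the parallel 144 h library and the first-series 142 h library differed, as given above. Adherent Tet1 and Tet3 were level at 92.5 h, each at 44.2%. With 1 library a time point these shares have no replicate check.

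**Figure D3:**
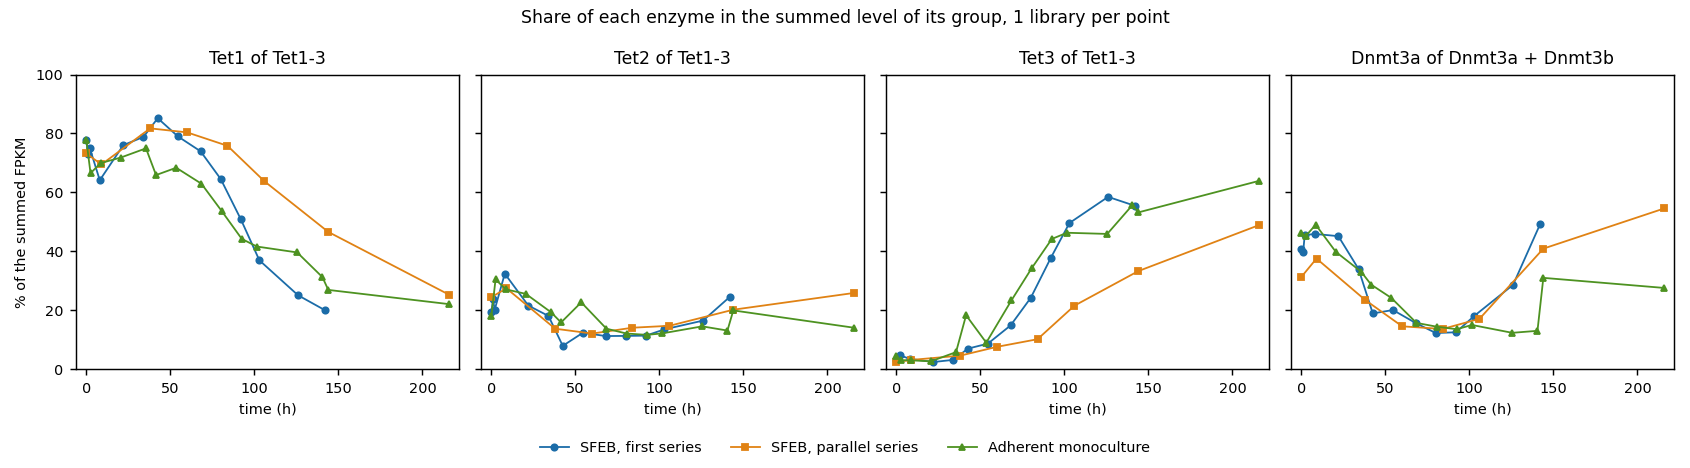
Share of the summed Tet FPKM held by Tet1, Tet2 and Tet3, and share of Dnmt3a in the sum of Dnmt3a and Dnmt3b (y axis, percent), against hours (x axis), with 1 library per point, in the 2 SFEB series and the adherent culture. Tet1 holds 73.2% to 77.8% at 0 h, and Tet3 holds the largest share in the last library of each series.

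Tdg, the glycosylase that follows the Tet enzymes, rose modestly. It went from 14.3 FPKM at 0 h to 32.3 FPKM at 92 h and 22.6 FPKM at 142 h in the first series, from 13.3 to 25.7 FPKM in the parallel series and from 10.2 to 20.3 FPKM in the adherent culture. The rise of Tdg in SFEB culture kept its call under all alternatives but the parallel series alone, and the adherent rise was lost without the 0, 2.5, 53.5 or 68.5 h library (adjusted p 0.0572 to 0.101).

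By median level the order in SFEB culture at 0–22 h was Uhrf1 (116 FPKM), Dnmt3l (76.3), Dnmt1 (55.9), Tet1 (50.5), Dnmt3b (33.7), Uhrf2 (19.3), Dnmt3a (17.8), Tet2 (16.9), Tdg (13.3) and Tet3 (1.98 FPKM). Every neighbouring pair in that order overlapped in range except Tdg and Tet3. After 125.5 h the order was Uhrf1 (102 FPKM), Dnmt1 (59.8), Uhrf2 (41.1), Dnmt3b (27.8), Tdg (21.6), Dnmt3a (21.6), Tet3 (16.3), Tet1 (8.07), Tet2 (6.97) and Dnmt3l (5.27 FPKM). Dnmt3l had thus gone from the second place to the last, and Tet3 from the last to the seventh. In this order only the ranges of Dnmt1 (46.1–65.8 FPKM) and Uhrf2 (31.8–43.6 FPKM) did not overlap between neighbours.

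The genes whose time courses were most like each member were found over the 22 SFEB and 15 adherent populations, among 12706 genes, by the lower of the 2 Pearson correlations of log2(FPKM + 1). Points are successive times of shared series, so the values describe likeness only and carry no test. For Dnmt1 the most alike gene was Uhrf1 (0.83 in SFEB and 0.84 in adherent culture), followed by Tmem20 and Xylb. Uhrf1 was most like Nacc1 (0.91 and 0.96), then Pole, the catalytic subunit of a replicative DNA polymerase, and Ints3. Dnmt3a was most like Wt1 (0.95 and 0.91), Tle4 and Nav2, and Dnmt3b most like Gpd2 (0.96 and 0.93), Bend3 and Mmp25. Dnmt3l was closest to Rpl10l, a ribosomal protein gene of the germline (0.99 and 0.98), BC033916 and Hsf2bp. For Tet1 the leading gene was Rest, a repressor of neuronal genes (0.96 and 0.97), followed by Ino80 and Zbtb38. Tet2 was most like Trps1 (0.91 and 0.91), Mllt6 and Lifr, the receptor of leukaemia inhibitory factor. Tet3 was most like Lrrn1 (0.98 and 0.99), D0H4S114 and Vangl2, Uhrf2 most like 2810030E01Rik (0.97 and 0.98), B3galtl and Epha7, and Tdg most like Aff3 (0.92 and 0.95), Foxk2 and Arrb1. Apart from Dnmt1 with Uhrf1, no member appeared among the 3 closest genes of another. The likeness was not mutual, as Dnmt1 had rank 14 among the genes most like Uhrf1. Both were lowest at 2 h in the first series and at 144 h in the adherent culture, and the part of these libraries in their correlation was not tested.

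Other genes of the pathway were read from lists chosen for their known roles. Between 0–22 and 34–68 h in SFEB culture, 17% of all genes tested were called higher and 23.5% lower, with an all-gene median log2 change of -0.025. Of 11 maintenance partners, 6 rose and 2 fell (median 0.23). Cdca7l (0.76 ± 0.15, adjusted p = 0.00037, limma) and Hells, a chromatin remodeller needed for DNA methylation (0.65 ± 0.18, adjusted p = 0.0073), rose most, Pcna, the replication clamp, rose by 0.36 (adjusted p = 0.032), and Zfp57, which keeps imprints methylated, fell by 1.404 (SE 0.26, adjusted p = 0.00024). Among 6 genes known to regulate these enzymes in mESCs, 5 fell and none rose (median -1.71), in a step in which 7 of 7 naive markers, a list that shares Klf4, Esrrb, Nanog and Prdm14, also fell (median -2.03). Of the regulators, Klf4 (-3.29 ± 0.41) and Esrrb (-2.37 ± 0.32) fell most, and Prdm14, a repressor of the de novo methyltransferase genes, fell by 1.51 (SE 0.23, adjusted p = 3.8e-05). The adherent culture had 5 of 6 of the regulators lower in the same step (median -1.67), where 9.26% of all genes were lower. Dppa3, which hinders Uhrf1, passed only between 35.5–68.5 and 80.5–101.5 h of the adherent culture among the 6 window comparisons (-1.27 ± 0.36, adjusted p = 0.017).

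The partners of demethylation and base excision repair, 16 genes, were divided in the first SFEB step, with 3 higher and 4 lower (median -0.075). Neil3 (0.75 ± 0.15) and Apex1 (0.66 ± 0.17) rose most and Gadd45b (-1.82 ± 0.37) was among those that fell. In the second step, with 21.5% of genes called higher, 11.5% lower and an all-gene median of 0.061, 3 rose and 2 fell (median 0.16). In the last step 7 of the 16 rose and none fell (median 0.12), where 24.7% of genes rose, 15.1% fell and the all-gene median was 0.044. In that step 5 of 5 neuron markers (median 2.49, summed level from 83.9–161 to 313–874 FPKM) and 5 of 6 neural progenitor markers (median 1.33) rose as well, and their part in the change of this list and of the readers below was not tested. Gadd45g (2.53 ± 0.42, adjusted p = 0.00012, limma) and Idh1 (0.98 ± 0.21, adjusted p = 0.00084) led that rise, and Ogt, a binding partner of Tet enzymes, rose by 0.33 (adjusted p = 0.022) in the second step and 0.68 (adjusted p = 0.00018) in the last. The adherent culture had 1 higher and 1 lower, then 1 and 2, then 1 and 0 of the 16 genes. Over all its genes 5.84% were higher and 9.26% lower, then 18.5% and 10.3%, then 5.51% and 1.20%.

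The readers of methylated CG pairs rose most often in the last step of SFEB culture. Of 10 tested, 2 rose and 4 fell in the first step (median -0.12), 2 rose and 1 fell in the second (0.21), and 7 rose with none lower in the last (0.47). The neuron and neural progenitor markers rose in that step too, as given above. Zbtb4 rose by 0.72 (SE 0.23, adjusted p = 0.016, limma) in the last step, after a fall by 1.09 (SE 0.19, adjusted p = 0.00011) in the first, and Mbd3 rose by 0.26 (adjusted p = 0.037) in the first step. In the adherent culture 9 were tested, and over its steps 5.84%, 18.5% and 5.51% of all genes rose and 9.26%, 10.3% and 1.20% fell. There 1 fell in the first step, 2 rose in the second, among them Mbd5 (0.52 ± 0.16, adjusted p = 0.03), and none passed in the last.

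Genes of the methyl donor cycle, 12 in number, were 4 higher and 1 lower in the first SFEB step (median 0.15), 4 lower in the second (-0.056) and 2 higher with 4 lower in the last (-0.31). Mat2a, which makes S-adenosylmethionine, was among those that rose in the first step (0.56 ± 0.15), and Mthfd1 (-1.08 ± 0.14) fell most in the last. Adherent counts were 1 lower, then 1 higher with 4 lower, then none. The adherent shares of all genes were 5.84% higher and 9.26% lower, then 18.5% and 10.3%, then 5.51% and 1.20%. Maintenance partners in the later SFEB steps were 1 higher with 4 lower both times (medians -0.031 and -0.28), and Hells fell in both (-1.04 ± 0.20 and -0.59 ± 0.22), as did Trim28 (-0.39 ± 0.11 and -0.60 ± 0.12). In the adherent culture 1 rose and 3 fell, then 1 rose and 2 fell, then none passed.

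S phase genes, 15 in number, gave 7 higher and none lower in the first SFEB step (median 0.28), 1 lower in the second (-0.088) and 9 lower in the last (-0.34), where 15.1% of all genes fell and the neuron and neural progenitor markers rose as given above. The part of those markers in it was not tested. Adherent counts were 0, then 1 higher with 2 lower, then 0. Gins2 rose most in the first step (0.77 ± 0.13) and Cdc6 fell most in the last (-0.62 ± 0.16), while Uhrf1 and Dnmt1 did not pass in either. Of 12 germline genes that are kept off by DNA methylation in somatic cells, 6 fell in the first SFEB step, where 23.5% of all genes fell (median -0.54), 9 fell and 1 rose in the second, where 11.5% fell (-0.97), and 3 fell and 1 rose in the last, where 15.1% fell (-0.30). Rpl10l fell by 2.29 (SE 0.39, adjusted p = 0.00027, limma) in the second step, in which Dnmt3l fell by 2.41, and Tdrkh was the gene that rose. In that step 6 of 6 neural progenitor markers (median 1.84) and 3 of 6 mesoderm and endoderm markers (0.68) rose as well. Their part in the list changes of the step was not tested. Adherent counts for the 12 germline genes were 4 lower, then 1 higher with 2 lower, then 2 lower, against 9.26%, 10.3% and 1.20% of all genes lower. The study measured no DNA methylation in the tables used here.

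Single cells held values as log10(RPKM + 1) after quantile normalization, so a cell was counted as expressing a gene where the value passed that of 0.5 RPKM. With 8 cells a time point from 1 culture there is no test between times, and 8 of 8 cells carries an exact 95% binomial interval of 63.1–100%, 4 of 8 one of 15.7–84.3%. For a gene seen in 0 of 8 cells the exact interval ends at 36.9%, and taking 3 counts as what a count of 0 allows gives up to 37.5%. These limits cover counting error only. The median cell had between 6145 (144 h) and 8972 (0 h) genes above 0.

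Values above 0 occurred in 64 of 64 cells for Dnmt1, Uhrf1, Dnmt3a and Dnmt3b, in 63 for Tet1, 57 for Dnmt3l, 52 for Uhrf2, 43 for Tdg and 38 each for Tet2 and Tet3, but quantile normalization leaves values barely above 0. In the median cell about 45% of all genes passed 0.5 RPKM at each time. Among the 10 genes Dnmt1 passed in 64 of 64 cells and Uhrf1 in 60, Dnmt3b in 53, Dnmt3a and Dnmt3l in 52 each, Tet1 in 34, Uhrf2 in 29, Tdg in 26, Tet3 in 10 and Tet2 in 5. Dnmt3b passed in 4, 7, 8, 8, 8, 8, 7 and 3 of 8 cells at 0, 9, 38, 60, 84, 106, 144 and 216 h. Its median level was 0.20 at 0 h, 2.30 at 38 h, 2.58 at 60 h and 0.11 at 216 h, and 8 of 8 cells held the gene from 38 to 106 h. Dnmt3l passed in 8, 8, 8, 7, 6, 8, 3 and 4 of 8 cells at those times, with medians of 2.32 at 0 h, 1.16 at 38 h and 0.53 at 84 h. Dnmt3a passed in 6, 8, 8, 8, 5, 5, 6 and 6 cells, with its highest median of 1.303 at 38 h.

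The order of Dnmt3b and Dnmt3l within cells changed over the course. Dnmt3b was the higher of the pair in 0 of 8 cells at 0 h, 2 at 9 h, 6 at 38 h, 8 at 60 and 84 h, 6 at 106 h, 8 at 144 h and 3 at 216 h. Both were above 0.5 RPKM in 4, 7, 8, 7, 6, 8, 3 and 0 of 8 cells over the 8 times. At 0 h 4 of 8 cells, and at 216 h again 4 of 8, had Dnmt3l without Dnmt3b. Across all 64 cells Dnmt3a and Dnmt3b had a Pearson correlation of 0.29, and of -0.0036 once each time point was centred on its mean. Dnmt1 and Uhrf1 had 0.32 and 0.29. The 8 cells of a time share 1 culture, and the values are descriptions.

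Tet2 and Tet3 were seen in few cells and Tet1 in more. At 0 h the mean of the 8 cells was 3.32 RPKM for Tet1, 0.387 for Tet2 and 3.20 for Dnmt3a. The parallel population read 61.0, 20.3 and 17.8 FPKM. Uhrf2, with a longest transcript of 3536 bases, also read low (1.17 RPKM against 20.5 FPKM), and Dnmt3l (1822 bases) read high (185 against 79.2). The part of transcript length in the cell counts and in the order of genes within cells was not tested. Tet1 passed in 7, 2, 4, 7, 4, 5, 3 and 2 of 8 cells, and Tet3 in 1, 0, 0, 1, 2, 1, 0 and 5. Tet1 was above Tet3 in 5 to 7 of 8 cells at each time up to 144 h and in 1 of 8 at 216 h. Tet2 passed in 1, 2, 0, 1, 0, 0, 0 and 1 cells. Cell 16 of the 216 h sample stood apart from the other 7 in its markers, with Pou5f1 at 1.94 (others 0.43–1.46) and Hes5 at 0 (others 0.56–2.26). In that cell Tet3 was at 0.0086, under the lowest of the other 7 (0.018), where 5 of 7 passed 0.5 RPKM. Its Tet1, at 0.58, lay within the range of the others (0.0063–1.50, median 0.0095). Without cell 16, Tet3 passed in 5 of 7 cells and Dnmt3b in 3 of 7.

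**Figure D4:**
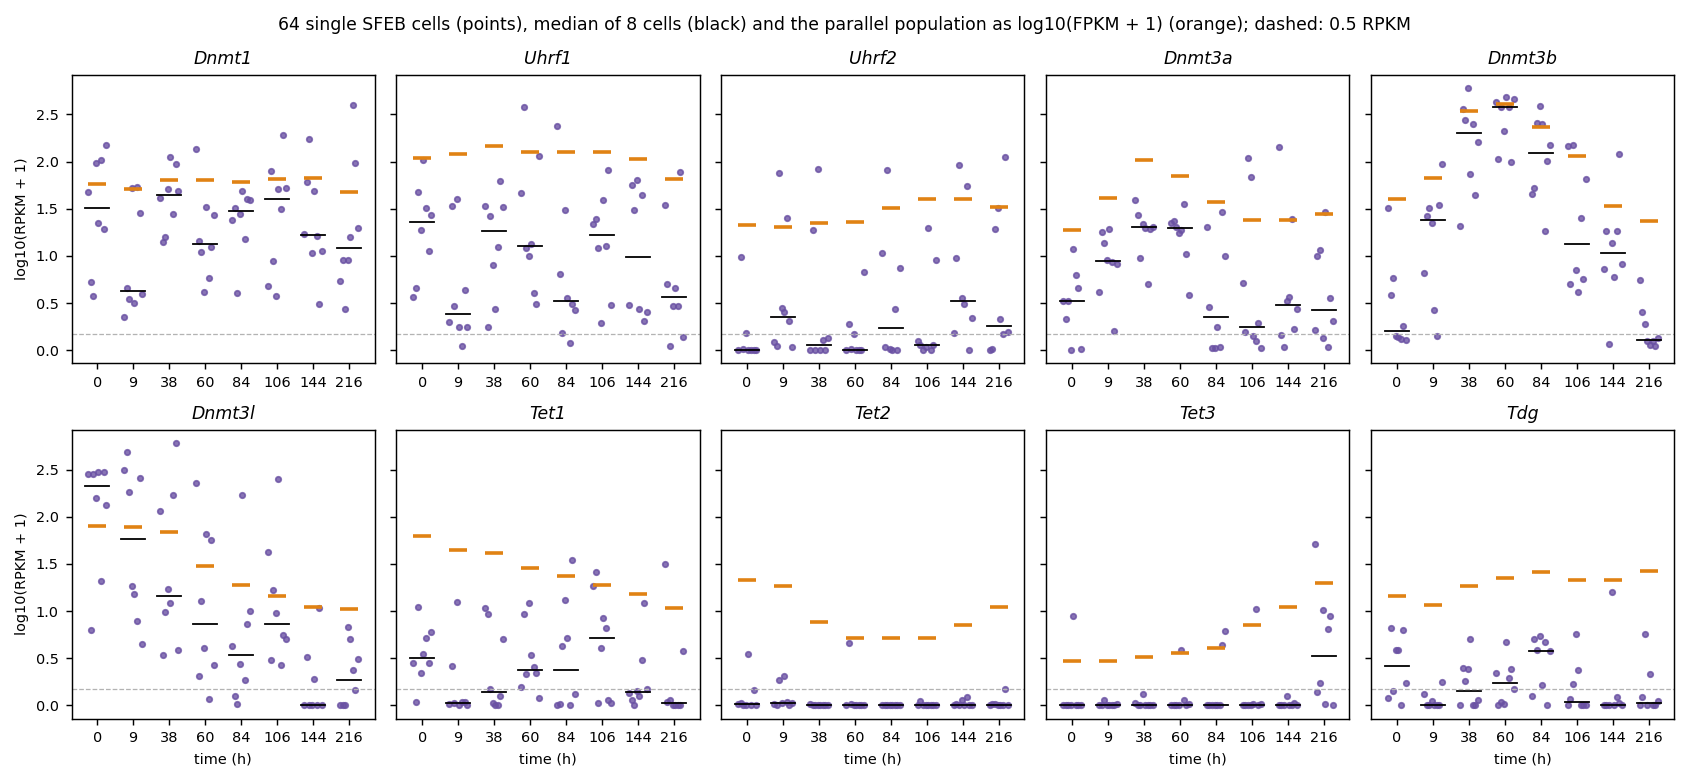
Level of the genes in each of the 64 single cells (points; y axis, log10(RPKM + 1)) at 8 time points (x axis, hours), with the median of the 8 cells (black bar), the parallel population as log10(FPKM + 1) (orange bar) and the level of 0.5 RPKM (dashed line). Dnmt3b medians reach 2.30 and 2.58 at 38 and 60 h, Dnmt3l is highest at 0 h (2.32), and most Tet2 and Tet3 points lie near 0.

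In the E14 lines the targeted gene was read first. Fyn was at 2.74–4.00 FPKM in WT and 0.598–1.10 FPKM in Fyn KO at day 0, and at 4.54–9.44 FPKM and 1.13–1.58 FPKM at day 4, with no overlap at either time. The E14 table was made apart from the R1 tables, and nothing in the labels says whether the replicates were separate cultures, so p-values measure the spread between these samples. In 3 of the day 4 libraries (WT 1 and 2, Fyn KO 2) 1 small RNA gene, Snord22, took 23.1% to 28.5% of the summed FPKM.

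From day 0 to day 4 in WT cells 7 of the 10 genes passed the test, against 25.8% of 12257 genes (15.5% higher and 10.3% lower). Dnmt3b went from 13.5, 9.21 and 16.3 FPKM to 85.8, 72.4 and 258 FPKM in replicates 1, 2 and 3 (log2 change 3.11 ± 0.50, adjusted p = 0.00179, limma). Dnmt3a went from 3.21, 1.97 and 2.66 to 20.4, 20.5 and 44.7 FPKM (2.95 ± 0.50, adjusted p = 0.00211). Replicate 3 was the highest in both genes at day 4, and no value overlapped between days. The 3 day 4 libraries rich in Snord22 (WT 1 and 2, Fyn KO 2) held the 3 lowest day 4 values of both genes over the 2 lines, with Fyn KO at 237, 146 and 201 FPKM of Dnmt3b and 44.9, 35.3 and 42.0 FPKM of Dnmt3a, and the part of this in the day 4 values was not tested. Other members were divided. Fyn KO 2 held the highest Fyn KO day 4 values of Dnmt1, Uhrf1, Dnmt3l and Tet1 and the lowest of Uhrf2, Tet3 and Tdg. WT 1 held the highest WT day 4 values of Uhrf1, Uhrf2, Tet3 and Tdg and the lowest of Dnmt3l, Tet1 and Tet2.

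Tet2 moved the other way, from 28.2, 38.1 and 48.0 FPKM to 3.41, 4.55 and 4.73 FPKM (-2.88 ± 0.26, adjusted p = 0.000107, limma). Tet3 rose from 1.19, 1.95 and 2.27 to 7.18, 5.08 and 4.98 FPKM (1.27 ± 0.23, adjusted p = 0.00291). Uhrf2 rose from 7.37, 6.21 and 5.63 to 27.99, 16.6 and 24.7 FPKM (1.68 ± 0.19, adjusted p = 0.000271), and Uhrf1 fell from 136, 175 and 172 to 85.1, 66.9 and 84.2 FPKM (-1.02 ± 0.14, adjusted p = 0.000604). Here the 2 homologues changed in opposite directions, each without overlap between days. Tdg rose from 11.4–12.6 to 26.9–34.4 FPKM (1.29 ± 0.21, adjusted p = 0.00163).

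Beside the R1 cells at 0 h in SFEB culture, the E14 WT cells at day 0 read lower in the de novo genes and higher in Tet2, although the tables cannot be tested against each other. Dnmt3a was at 1.97–3.21 FPKM in E14 WT and at 16.3 and 17.8 FPKM in the SFEB libraries at 0 h. For Dnmt3b the values were 9.21–16.3 FPKM against 23.8 and 39.0, for Dnmt3l 5.71–19.7 against 51.6 and 79.2, and for Tet2 28.2–48.0 against 14.5 and 20.3 FPKM. Replicate 3 of Fyn KO at day 0 lay above both SFEB libraries in Dnmt3b (49.7 FPKM) and Dnmt3l (132 FPKM). Tet2 exceeded Tet1 in 3 of 12 E14 libraries, all at day 0, and Tet1 exceeded Tet3 in 12 of 12, at day 4 included.

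Fyn KO cells also had 7 of 10 past the threshold from day 0 to day 4, against 19.3% of genes (11.8% higher and 7.56% lower), and 6 of these had passed in WT. In this line Dnmt3a (2.93 ± 0.50, adjusted p = 0.00309, limma), Dnmt3b (3.02 ± 0.50, adjusted p = 0.00282), Tdg (0.99 ± 0.21, adjusted p = 0.00758) and Uhrf2 (1.02 ± 0.19, adjusted p = 0.00506) rose, and Tet2 (-2.56 ± 0.26, adjusted p = 0.000231), Uhrf1 (-0.99 ± 0.14, adjusted p = 0.00101) and Dnmt1 (-0.53 ± 0.17, adjusted p = 0.0495) fell. The Dnmt1 call lies at the threshold and was lost in 5 of the fits without 1 Fyn KO library (adjusted p up to 0.155). Tet3 in Fyn KO went from 2.12, 1.81 and 3.06 to 3.69, 3.62 and 5.31 FPKM (0.65 ± 0.23, adjusted p = 0.0698). Of the lists, WT and Fyn KO cells had 3 and 1 higher and 4 and 4 lower among 11 maintenance partners, and 5 and 4 of 7 regulators lower. Among base excision and demethylation partners 3 rose in each line and 2 fell in WT. For readers the counts were 1 higher and 1 lower in WT and 1 and 2 in Fyn KO, for the methyl donor cycle 2 and 3 in WT and 0 and 4 in Fyn KO, for S phase genes 3 lower of 15 in each, and for 14 germline genes 1 higher and 3 lower in WT and 3 and 1 in Fyn KO. Over all genes 15.5% were higher and 10.3% lower in WT. In WT and Fyn KO, 8 and 7 of 8 naive markers fell and 4 of 4 formative epiblast markers, Dnmt3b among them, rose in each. Of 4 neural progenitor markers 3 rose in WT (median 2.41) and 0 in Fyn KO (0.71). The part of these markers in the list counts was not tested.

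Between Fyn KO and WT none of the 10 genes passed at day 4 or day 0, where 0.0734% (0.00816% higher and 0.0653% lower) and 0.171% (0.0408% higher and 0.131% lower) of genes were called. The difference in the change from day 0 to day 4 also passed in none of them, with 0.00% of genes called by limma and 537 at an unadjusted p under 0.05. At day 4 the log2 differences of the 10 genes ran from -0.37 (Tet3) to 0.73 (Dnmt3l), and at an unadjusted p under 0.05 there were 1483 genes at day 4 and 1785 at day 0. The one member without overlap at day 0 was Uhrf2, with 10.2, 10.2 and 9.17 FPKM in Fyn KO and 7.37, 6.21 and 5.63 FPKM in WT (0.56 ± 0.19, adjusted p = 0.217, limma). The share of all genes without overlap was not counted. With 3 against 3 libraries the smallest p of an exact test is 0.1, so the lack of overlap is a description only. For Uhrf2 the change over days differed between Fyn KO and WT by a log2 value of -0.66 ± 0.27 (adjusted p = 0.997).

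Replicate 3 of the Fyn KO day 0 cells stood apart from the other replicates. In replicates 1, 2 and 3 Dnmt3l was at 12.99, 1.31 and 132 FPKM, Dnmt3a at 2.95, 1.82 and 13.6 FPKM, Dnmt3b at 15.1, 15.3 and 49.7 FPKM and Tet1 at 39.9, 28.2 and 74.1 FPKM. Its summed formative epiblast markers were 64.9 FPKM against 15.6 and 15.7 FPKM, a list that holds Dnmt3b itself, and its summed naive markers were 991 FPKM against 1194–1287 FPKM in the other replicates. The part of this in the day 0 values was not tested. Without that library no member passed between Fyn KO and WT at day 0 either, and 8 of 10 passed from day 0 to day 4 in Fyn KO. Over days 1857 of all genes were then called higher and 1206 lower, in place of 1443 and 927.

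**Figure D5:**
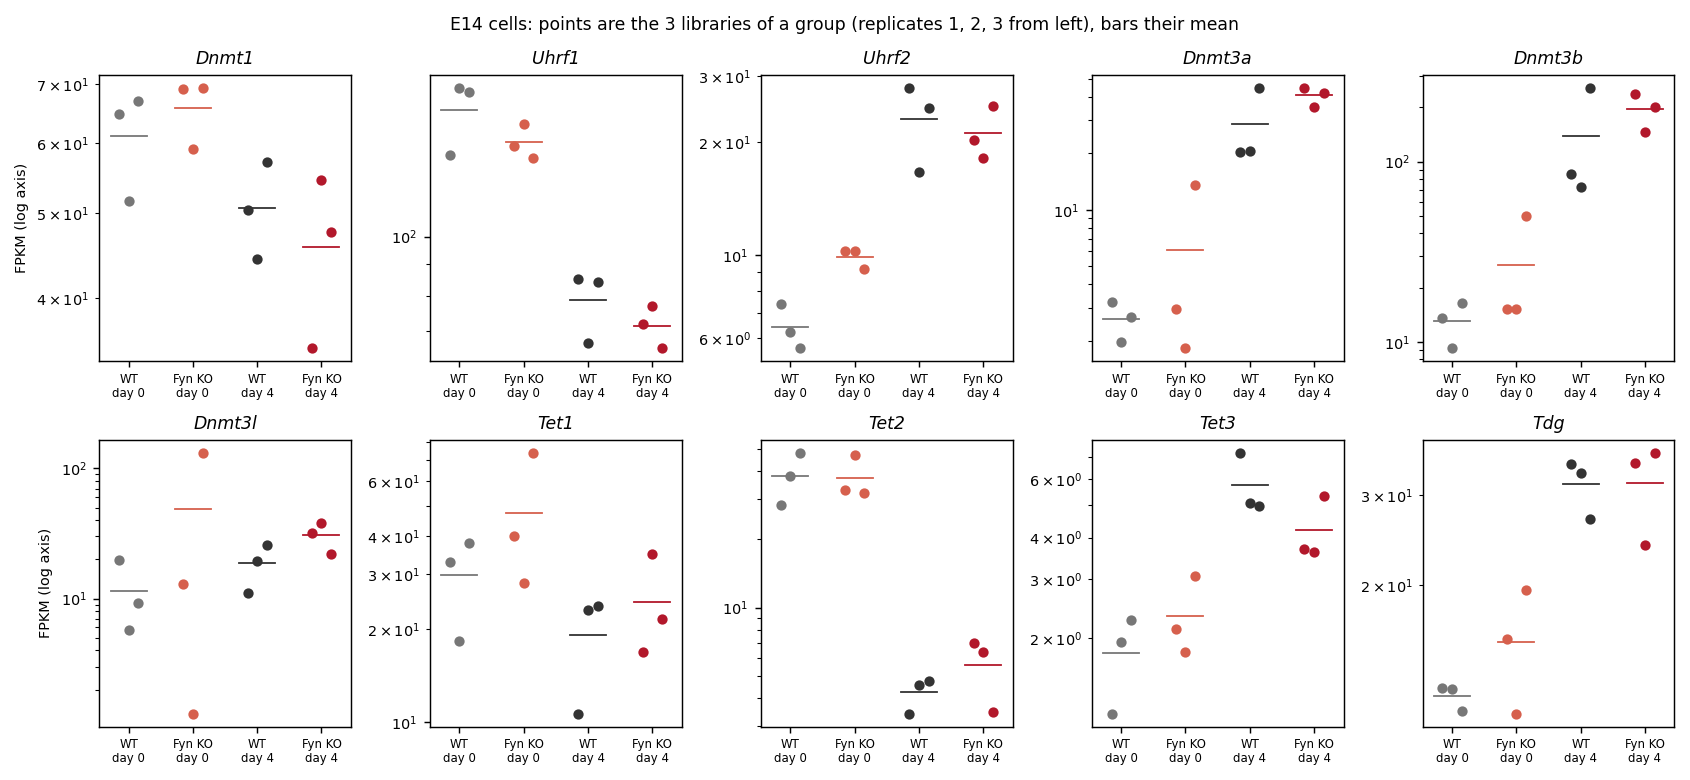
Level of each gene (y axis, FPKM, log scale) in each of the 12 E14 libraries (points), grouped by genotype and day, with a bar for the group mean. Dnmt3b and Dnmt3a are higher at day 4 and Tet2 lower in both genotypes, and replicate 3 of Fyn KO at day 0 lies above the other 2 in Dnmt3l (132 FPKM).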

How the data were processed

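RNA-seq (100 bp single-end) was aligned and quantified by the authors. The labels name TopHat2 2.0.8b and Cufflinks 2.1.1, with mm9 for R1 and mm10 for E14, whereas the study's methods name older versions and mm9. The deposited values of adherent and E14 libraries are FPKM, and those of SFEB populations are FPKM after ComBat batch correction by the authors, whose batches are not given in the sources used here. Values below 0 were set to 0. Single-cell values were deposited as log10(RPKM + 1) after quantile normalization. The study states a minimum read number per library, but no counts were used, so the reads behind each value are not known, which limits how firmly low values can be read.

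Genes with at least 1 FPKM in at least 3 libraries were tested on log2(FPKM + 1) with limma 3.58.1 in R 4.3.3 (moderated with a trend, a term for the series in SFEB culture, Benjamini-Hochberg adjustment over all genes tested, threshold 0.05). Fold changes on that scale understate those of low genes. The fit was tested on simulated data. Other steps used Python 3.11.15, NumPy 2.4.6, pandas 2.3.3, SciPy 1.17.1 and matplotlib 3.10.9. Named were the 10 members, the 3 genes most like each, for each pathway list the 2 genes with the largest rise and fall past the threshold, and Dppa3, Prdm14, Pcna, Hells, Ogt and Mbd3. Single values of a few list genes are not reported here. Fyn and marker genes were named besides. The members and lists were chosen with earlier results of these data known. Replicate numbers of E14 paired the samples in WT day 4 against day 0 (correlations of deviations 0.20, 0.22 and 0.22) and in Fyn KO against WT at day 4 (0.14, 0.26 and 0.24), but not in Fyn KO against WT at day 0 (0.063, 0.34 and -0.12) or Fyn KO day 4 against day 0 (0.024, 0.090 and 0.0011), and the fit used no block. Alternatives were other pseudocounts, filters, quantile normalization, each SFEB series alone, moved window edges, the replicate block and leaving out each library.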

Additional observations from a re-analysis of the deposited data

Results flagged for a closer look

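Among the 10 genes, 17 of 73 groups of 8 cells (23.3%) in which at least 1 cell passed 0.5 RPKM had 1 cell far from the other 7, by a gap above the 95% critical value of Dixon's test. Chance flags about 1 in 20 groups of normally spread values, but sparse single-cell values are not so spread and groups entered through their highest cell, so the share of 23.3% cannot be set against that rate. All values are log10(RPKM + 1), and all but 1 were the highest of their group. At 0 h these were Dnmt3b in cell 1 at 1.51, Uhrf2 in cell 2 at 0.988, and Tet2 and Tet3 in cell 5 at 0.544 and 0.947. At 9 h they were Tet1 in cell 5 at 1.10 and Tdg in cell 13 at 0.252. At 60 h Uhrf2 was at 0.825 in cell 10, Tet2 at 0.659 in cell 2 and Tet3 at 0.585 in cell 6. At 84 h Dnmt3l was at 2.24 in cell 5, and Dnmt1 was lowest in cell 3, at 0.610. At 106 h Tet3 was at 1.02 in cell 9. At 144 h Tet1 was at 1.08 in cell 16 and Tdg at 1.21 in cell 10. At 216 h Tet1 was at 1.50 in cell 1, Tdg at 0.756 in cell 4 and Tet2 at 0.177 in cell 13. Tet genes made up 17 of the 73 groups and 9 of the 17 with such a cell.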

How the results depend on the processing

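Of 38 single values past the threshold, 23 kept their call under every alternative run and none of the 38 turned in direction. Over 529 alternative values, 473 kept the call and 56 lost it. The values that kept it include the SFEB changes of Dnmt3b in the first and last steps, Dnmt3a and Tet2 in the first and Tet3 in the last, the adherent rise of Dnmt3b, and the 7 WT calls of E14. With the parallel SFEB series alone the counts of genes past the threshold were 3, 0 and 2 in the 3 steps, in place of 5, 6 and 4, with 8 libraries in place of 22. Of all 12324 genes tested there, 120, 1 and 552 were called higher and 346, 0 and 246 lower. With the 68.5 h library moved to the later window the adherent counts were 2 in the first step and 3 in the last, in place of 4 and 1. Over all genes that fit called 492 higher and 874 lower in the first step and 1925 and 647 in the last. Leaving out 1 library at a time gave 4 to 7, 5 to 6 and 2 to 5 genes in the SFEB steps, 1 to 5, 4 to 6 and 0 to 3 in the adherent steps, 7 in each fit for WT, 6 to 8 for Fyn KO over days, and 0 between genotypes. The numbers of all genes called moved between these fits as well. The replicate block gave 7 genes past the threshold in WT over days, 7 in Fyn KO and 0 in the other comparisons, and changed no call of a single gene. Among uncalled differences of at least 0.5 on the log2 scale, or named in the text, 3 turned sign, each without 1 Fyn KO day 0 library: Dnmt3a between genotypes ranged from -0.10 to 1.08, Dnmt3l between genotypes from -0.98 to 1.94, and Dnmt3l over days in Fyn KO from -0.47 to 2.45. Without replicate 3 of Fyn KO at day 0 the first of these was -0.10 and the next -0.98, and without replicate 2 the last was -0.47. Of the other uncalled differences, all under 0.5, 17 of 42 turned sign under some alternative.

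Quantile normalization moved the split of all genes called. Higher against lower went from 2269 and 3137 to 3170 and 2481 in the first SFEB step, from 2874 and 1543 to 2065 and 2007 in the second and from 3299 and 2016 to 2532 and 2843 in the last. Adherent splits went from 752 and 1193 to 1007 and 690, from 2378 and 1326 to 1552 and 1856, and from 710 and 155 to 533 and 267, and WT over days from 1904 and 1262 to 1576 and 1532. Fyn KO over days went from 1443 and 927 to 1226 and 1176. It removed the calls of Tet2 in the last SFEB step (adjusted p = 0.0597, limma) and of Dnmt1 in Fyn KO (adjusted p = 0.0722). The first SFEB series alone removed those of Dnmt3b in the second step (log2 change -1.07, adjusted p = 0.140) and of Tet1 (-0.80, adjusted p = 0.154) and Tet2 (0.81, adjusted p = 0.202) in the last, with changes about as large as in both series. In single cells the time of the highest mean was unchanged for 6 of 10 genes when RPKM was averaged before the log. Of 640 values (10 genes in 64 cells), 385 passed 0.5 RPKM and 547 were above 0. The cause of these changes was not tested.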
